A study of Mus musculus with 12 samples.

Results

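The strain comparison in splenic dendritic cells set 3 libraries from NOD.Idd2 mice against 3 libraries from NOD mice, 6 of the 12 libraries of the study, and covered all genes. The libraries were chosen by their labelled cell type and strain alone. Spleen was the source of the dendritic cells in both groups, the mice were 12 weeks old, and the labels name no treatment. NOD is an inbred strain that develops autoimmune diabetes spontaneously and served as the control. NOD.Idd2 mice carry, on the NOD background, the Idd2 diabetes locus from the B10 strain, and the study asked how that locus alters the transcriptome. The other 6 libraries were B cells of the same strains. The labels do not say whether libraries of a group came from separate animals, how the cells were isolated, or how much B10 genome the strain carries besides the locus, so the p-values cover only the spread among these libraries, which may be technical.

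Dendritic cells take up antigen and present peptides to T cells, on class I molecules to CD8 T cells and on class II molecules to CD4 T cells. The spleen holds conventional cells of type 1, which cross-present antigen, and of type 2, which mainly present on class II, besides plasmacytoid cells, which secrete type I interferon. Idd2 is one of many loci that alter diabetes risk in NOD mice, and it lies on chromosome 9.

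The libraries held 8663421 to 30337812 counts, with NOD.Idd2 replicate 3 the shallowest at 8663421 counts and 18120 detected genes, against 20493 to 21173 genes in the others. That library also lay furthest out on the first principal component, which held 36.0% of the variance. Mitochondrial genes, a measure of RNA quality, took 1.52%, 1.48% and 1.44% of the counts in NOD and 1.64%, 1.63% and 1.76% in NOD.Idd2, so the strains did not overlap; the part of this in the results was not tested. Dendritic cell markers were abundant and similar in both strains. Itgax, which encodes CD11c, was at 2071, 2249 and 1959 CPM (a gene's count scaled to the size of its library) in NOD and at 2104, 2000 and 1966 CPM in NOD.Idd2. None of the 12 general dendritic cell markers was called, nor any of the 12 tested plasmacytoid markers. Markers of other cells were present at lower levels: the B cell list summed to 566 to 614 CPM in NOD and 531 to 596 CPM in NOD.Idd2, and the T cell list to 120 to 137 and 121 to 141 CPM. No marker of either list was at 0 counts in all 6 libraries. The monocyte list was the most abundant of these, at 1194 to 1538 CPM in NOD and 1487 to 1594 CPM in NOD.Idd2. Of its 11 markers 8 were higher in NOD.Idd2, none was called and none was at 0 counts in all 6 libraries. The splenic macrophage list summed to 420 to 494 and 444 to 479 CPM, with 1 of 14 markers called.

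Of 14441 genes tested, 186 (1.29%) differed between the strains at an adjusted p under 0.05 (edgeR's quasi-likelihood test, Benjamini-Hochberg). Of these, 96 (0.665%) were higher and 90 (0.623%) lower in NOD.Idd2. Most changes were small: the median called gene differed by 1.47-fold, 102 differed by less than 1.5-fold and 46 by at least 2-fold. Without single libraries the count ranged from 63, without NOD.Idd2 replicate 2, to 332, without NOD replicate 3. It was 118 without NOD replicate 2, and 71 and 77 without NOD.Idd2 replicates 1 and 3. None of the 186 changed sign in any alternative fit. The strains did not overlap in any of these genes, so such a change was hardly possible. In the fit of all 12 libraries 94 genes were called. Below, a positive log2 change is a higher level in NOD.Idd2 and SE is its standard error. Values in sequence are replicates 1, 2 and 3, and a gene "kept its call" if it passed whichever library was left out.

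**Figure D1:**
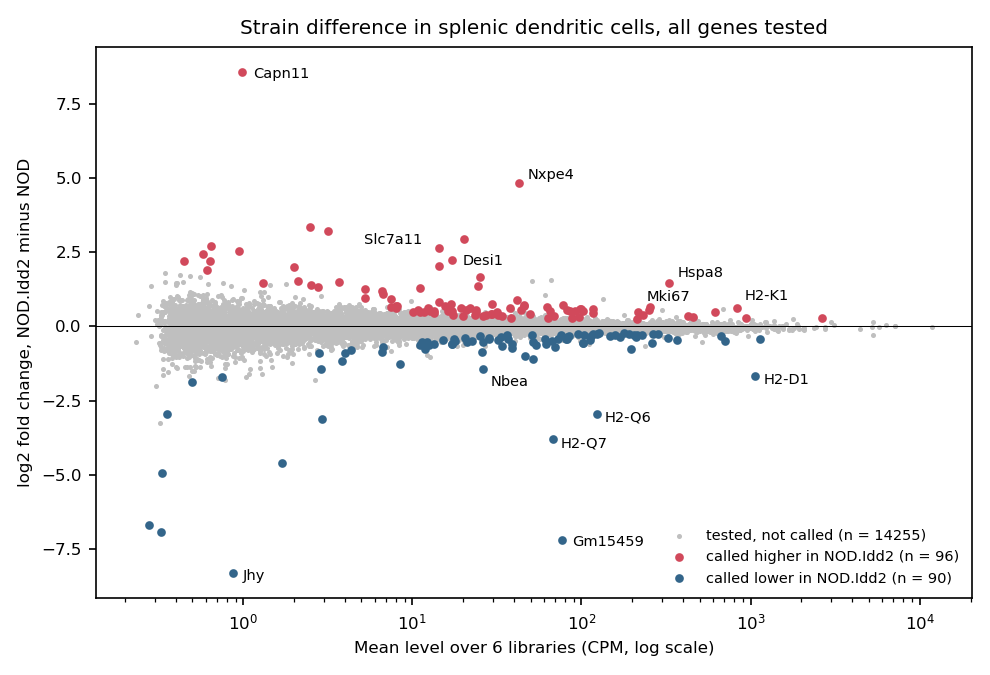
Log2 fold change between the strains against mean level in CPM (log axis) for each gene tested in dendritic cells, with called genes in red (higher in NOD.Idd2) and blue (lower). The 96 higher and 90 lower calls lie mostly close to 0, and a few genes such as Nxpe4 and H2-D1 stand far from it. Fitted values of genes with 0 counts in 1 strain (Jhy, Capn11) are no estimates of size.

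Called genes lay on every chromosome from 1 to 19, on X and in the mitochondrial genome, at different shares of the genes tested. None of the 8 genes tested on Y was called. In the mitochondrial genome 2 of 12 genes were called (16.7%, against 1.29% of all genes tested). Both were higher in NOD.Idd2, and 11 of the 12 lay above 0. The mitochondrial calls, named here after their values were seen, were mt-Cytb, a subunit of respiratory complex III, and mt-Nd4, a subunit of complex I. Of the 50-base words in the transcripts of mt-Nd4, 62.2% also occur in those of Gm28439, so the level of mt-Nd4 is uncertain. The level of mt-Cytb was 2326, 2503 and 2321 CPM in NOD and 2837, 2768 and 3074 CPM in NOD.Idd2, and that of mt-Nd4 was 857, 859 and 801 CPM against 1015, 977 and 1101 CPM. Both were lost without any NOD.Idd2 library (edgeR adjusted p 0.113 to 0.222 for mt-Cytb and 0.0719 to 0.154 for mt-Nd4), and in the fit of all 12 libraries, and mt-Cytb also without NOD replicate 3 (0.0673).

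Among the nuclear chromosomes, chromosome 17 had 21 of 735 genes called (2.86%), chromosome 9 had 20 of 819 (2.44%) and chromosome 3 had 15 of 759 (1.98%). Chromosome 9 carries the locus and chromosome 17 the major histocompatibility complex. In windows of 5 Mb, 14 of 522 held at least 3 called genes, and together these held 65 of the 186 called genes and 24 of the 46 that differed by at least 2-fold. The window of chromosome 17 from 35 to 40 Mb had 10 of 88 genes called, and the window of chromosome 9 from 45 to 50 Mb had 8 of 37. Other such windows lay on chromosomes without either feature: 4 of 38 genes were called on chromosome 3 from 50 to 55 Mb, all higher, and 4 of 98 on chromosome 5 from 135 to 140 Mb, all lower. These shares are descriptions, as the windows were picked by their calls and neighbouring genes are not independent. Of all genes tested 1.29% were called, 0.665% higher and 0.623% lower. Whether reads of NOD and B10 alleles matched the reference genome equally well was not tested, here or for the gene levels below.

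**Figure D2:**
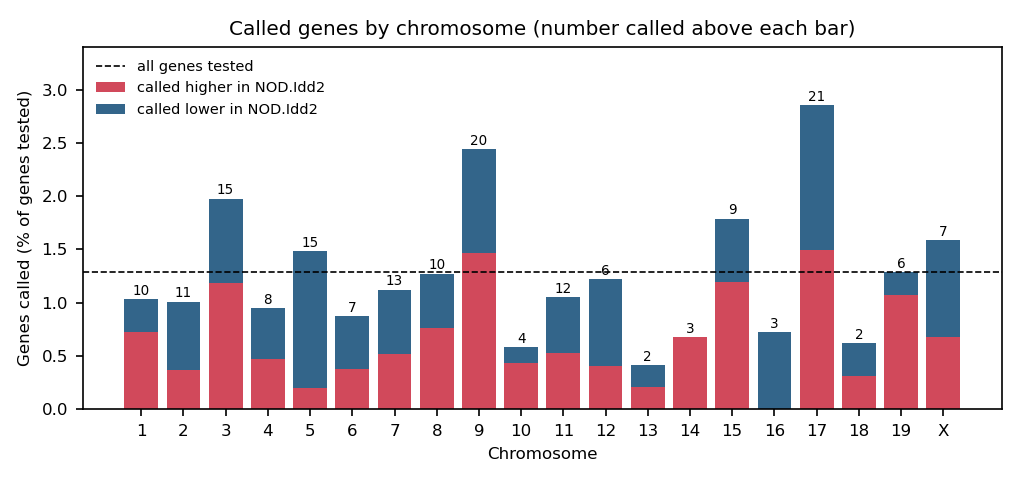
Share of genes tested on each of chromosomes 1 to 19 and X that were called, in percent, split into higher (red) and lower (blue) in NOD.Idd2, with the number called above each bar and a dashed line at the share over all genes, 1.29%. Chromosomes 17 (21 called), 9 (20) and 3 (15) have the tallest bars of those drawn; the mitochondrial genome, with 2 of 12 genes called, and Y are not drawn.

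On chromosome 9, Nxpe4 (GRCm38 chromosome 9, 48162023 to 48400025), a member of the neurexophilin-like family, was at 3.27, 2.43 and 2.92 CPM in NOD and at 81.6, 84.5 and 82.3 CPM in NOD.Idd2. It rose by log2 4.85 (SE 0.09, edgeR adjusted p = 4.25e-11) and the strains were far apart. The neighbouring pseudogene Nxpe1-ps (48418321 to 48431959) was at 12.9, 11.6 and 11.7 CPM against 36.8 to 40.5 CPM. The annotated span of Nxpe4 covers the related gene Nxpe2, and the use of strand in the counting is not known, so reads of these genes may not be told apart. Zbtb16 (48654297 to 48836222), which encodes the transcription factor PLZF of innate-like lymphocytes, was at 0.889, 0.303 and 0.606 CPM in NOD and 4.87, 5.42 and 6.91 CPM in NOD.Idd2. All 3 genes kept their call. In the same stretch, Cadm1 (47530173 to 47857637), an adhesion molecule that marks type 1 conventional dendritic cells, was at 91.4, 74.2 and 94.0 CPM in NOD and at 51.0, 57.1 and 51.9 CPM in NOD.Idd2. It fell by 0.69 on the log2 scale (SE 0.09, edgeR adjusted p = 0.00212) and kept its call. It was the single called member of 14 type 1 markers, of which 10 lay above 0. Other type 1 markers were close to level: Xcr1, the receptor for the chemokine Xcl1, was at 132 to 149 CPM in NOD and 131 to 157 CPM in NOD.Idd2.

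Elsewhere on chromosome 9, Slc37a2 (37227585 to 37255738), a sugar phosphate transporter of macrophages, was at 10.7, 16.2 and 14.2 CPM in NOD and 37.5, 36.9 and 31.8 CPM in NOD.Idd2. Sorl1 (41964720 to 42124297), an endocytic sorting receptor, was at 429, 407 and 376 CPM against 504, 512 and 506 CPM. It rose by log2 0.33 (SE 0.05, edgeR adjusted p = 0.0109), but lost its call without any of the 3 NOD.Idd2 libraries (0.0660 to 0.0978). Jhy (40894849 to 40964118) had 46, 53 and 35 counts in NOD and 0 in every NOD.Idd2 library. With 3 counts over the 3 libraries taken as the floor, it was at least 35.4-fold lower in pooled counts. Capn11, a calpain protease gene on chromosome 17 (45630204 to 45659325), had the opposite pattern, with 0 counts in NOD and 21, 103 and 14 in NOD.Idd2. It was at least 58.0-fold higher in pooled counts, with 103 of its 138 counts from NOD.Idd2 replicate 2. Both genes kept their call. The bounds cover counting error only and are not bounds for single libraries.

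Hspa8 (chromosome 9, 40800984 to 40810087), the constitutive cytosolic chaperone, was at 116, 173 and 237 CPM in NOD and 501, 521 and 437 CPM in NOD.Idd2. It rose by log2 1.47 (SE 0.19, edgeR adjusted p = 0.00212) and kept its call, although it was lost in the fit of all 12 libraries. The called gene Gm15459 on chromosome 5 went the other way, at 87.2, 166 and 203 CPM in NOD and 0.965, 1.12 and 0.921 CPM in NOD.Idd2. Of the 50-base words in the transcripts of Gm15459, 98.8% also occur in another gene's transcripts, Hspa8 first among them. Summed over both genes, the level was 203, 339 and 440 CPM in NOD and 502, 522 and 438 CPM in NOD.Idd2, so that the sums overlapped. The ratio of the strain means was 2.77 for Hspa8 alone and 1.49 for the sum. The way reads that match both genes were assigned is not known here. The pair was chosen after its values were seen. The other 19 of 20 tested chaperone genes were not called. The summed chaperone list varied among NOD libraries from 2513 to 3929 CPM, and Hsp90ab1 was at 1018, 1292 and 1516 CPM in NOD.

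**Figure D3:**
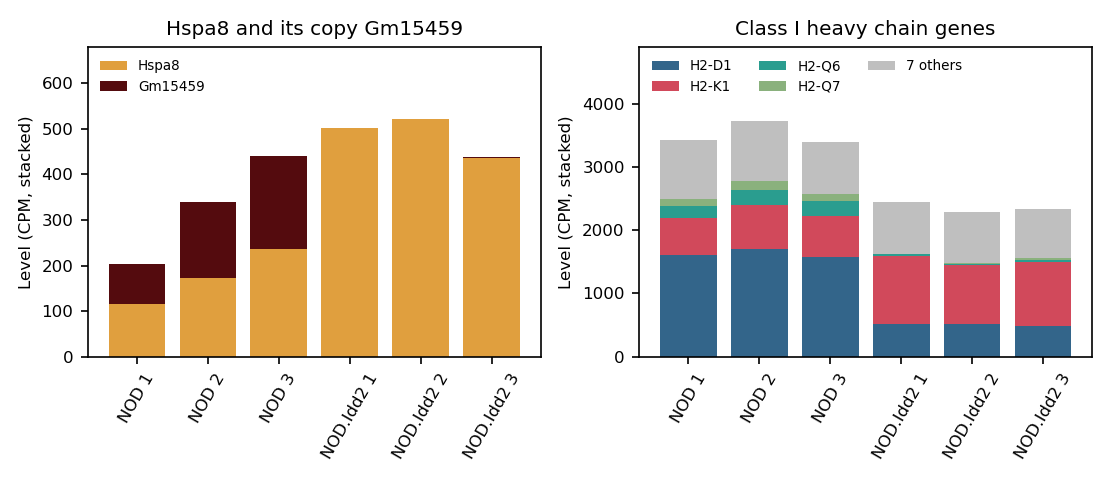
Left, stacked levels in CPM of Hspa8 and Gm15459 in each of the 6 libraries: the summed bars reach 203 to 440 in NOD and 438 to 522 in NOD.Idd2. Right, stacked levels of 11 class I heavy chain genes: H2-D1, H2-Q6 and H2-Q7 are smaller and H2-K1 larger in NOD.Idd2, and the mean sums are 3522 and 2360.

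Class I genes of chromosome 17 moved in both directions, with the largest changes downward. Class I heavy chains pair with beta-2 microglobulin and display peptides that the TAP transporter delivers. H2-D1 (35262730 to 35267499), a classical heavy chain, was at 1605, 1700 and 1571 CPM in NOD and 518, 522 and 491 CPM in NOD.Idd2. H2-Q6, a non-classical chain, was at 190, 238 and 225 CPM in NOD and 29.9, 27.6 and 27.4 CPM in NOD.Idd2. Both were lower in every NOD.Idd2 library and kept their call. H2-K1 (33996017 to 34000347), the other classical chain, moved in the opposite direction, from 584, 704 and 661 CPM to 1077, 923 and 1012 CPM (log2 0.63, SE 0.07, edgeR adjusted p = 0.00136), and kept its call. H2-M2 was at 347, 336 and 254 CPM in NOD and 220, 208 and 211 CPM in NOD.Idd2. Its call was lost without NOD replicate 2 or any NOD.Idd2 library (edgeR adjusted p 0.0611 to 0.122), and so was that of Nlrc5, the transactivator of class I genes, at 222, 238 and 217 CPM against 191, 180 and 183 CPM (0.0549 to 0.149), which was also lost in the fit of all 12 libraries.

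H2-Q7 was at 109, 135 and 121 CPM in NOD and at 2.28, 2.30 and 35.3 CPM in NOD.Idd2. Replicate 3 of NOD.Idd2 thus stood apart from the other two, and the call was lost without NOD.Idd2 replicate 1 or 2 (edgeR adjusted p 0.0978 to 0.0997) and by DESeq2 and in the fit of all 12 libraries. Class I transcripts share sequence: 35.0% of the 50-base words of H2-Q6, 26.5% of H2-Q7, 12.8% of H2-D1 and 9.63% of H2-K1 occur in other genes, so single-gene levels are uncertain. Summed over 11 heavy chain genes, a group set after seeing the values, the level was 3522 ± 184 CPM in NOD and 2360 ± 79.6 CPM in NOD.Idd2 (SD, n = 3), a ratio of 0.670. Of the 26 tested genes of the class I list, 1 was called higher and 5 lower, against 0.665% and 0.623% of all genes tested. Of the 26, 5 lay above 0, against 7253 of 14441 genes. The median log2 change was -0.14, against 0.00 over all genes. The number called lower was 3 without NOD replicate 2, 2 without NOD.Idd2 replicate 1 or 2, and 3 without NOD.Idd2 replicate 3. The light chain gene B2m, at 2046, 2252 and 2167 CPM in NOD and 1976, 2094 and 1941 CPM in NOD.Idd2, was not called. On the class II list none of 15 genes was called, the median was -0.06, and the invariant chain gene Cd74 had means of 11954 and 11784 CPM.

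Genes of the type I interferon response were mostly lower in NOD.Idd2. Type I interferon signals through a complex of transcription factors that binds a DNA element named ISRE in the promoters of antiviral genes. Of 33 genes tested, 5 were called lower and 1 higher, against 0.623% and 0.665% of all genes tested. Of the 33, 2 lay above 0 and the median log2 change was -0.23. For 15 of the 33 every NOD.Idd2 library was below every NOD library, against 7.81% of all genes tested. The number called lower ranged from 1, without NOD.Idd2 replicate 1 or 3, to 10, without NOD replicate 3. Leaving out replicate 2 of either strain gave 2, and 1 remained in the fit of all 12 libraries. The summed level was 1973 to 2098 CPM in NOD and 1687 to 1846 CPM in NOD.Idd2.

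Of the 34 genes on that list, 24 had a promoter in the RefSeq table (GRCm38.p6, 250 bases before to 50 after the start). The ISRE core, the letters GAAA, any 2 bases and GAAA again, occurred on either strand in 14 of the 24 (58.3%), against 3.99% of 27025 promoters. These shares are counted from sequence alone, but the list was chosen with earlier results of these data known. These 4 stretches show the element in genes of the list, of which only Oas1a was called. Capitals mark each match, and on the opposite strand the core reads TTTC, any 2 bases and TTTC. The stretches are the reference strain's letters, and NOD or B10 alleles may differ.
Oas1a, chr5:120907526-120907625, minus strand: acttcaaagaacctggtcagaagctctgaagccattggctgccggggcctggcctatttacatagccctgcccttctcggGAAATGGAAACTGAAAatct
Trim30a, chr7:104465194-104465293, minus strand: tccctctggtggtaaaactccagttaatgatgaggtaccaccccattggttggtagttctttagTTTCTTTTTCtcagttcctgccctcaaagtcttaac
Oas3, chr5:120777680-120777779, minus strand: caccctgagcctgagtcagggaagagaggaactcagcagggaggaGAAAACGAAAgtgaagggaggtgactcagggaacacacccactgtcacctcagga
Ifit3, chr19:34583362-34583461, plus strand: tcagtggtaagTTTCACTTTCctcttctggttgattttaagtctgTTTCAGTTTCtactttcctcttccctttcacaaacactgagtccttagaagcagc
Oas1a holds 2 overlapping matches and Ifit3 holds 2 separate ones. The median log2 change was -0.23 over the 13 tested genes with the element and -0.21 over the 10 without it.

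Among the called interferon genes, Oas2 (chromosome 5, 120730333 to 120749853), an oligoadenylate synthetase that activates RNase L, was at 66.8, 65.9 and 63.8 CPM in NOD and 44.9, 47.2 and 33.5 CPM in NOD.Idd2. It fell by 0.62 on the log2 scale (SE 0.10, edgeR adjusted p = 0.00813) and kept its call, but was lost in the fit of all 12 libraries. Its relative Oas1a was at 20.9, 20.2 and 21.7 CPM against 14.3, 15.8 and 14.2 CPM, and was lost without NOD.Idd2 replicate 1 or 3 (edgeR adjusted p 0.0609 to 0.0800). Of its 50-base words 57.6% occur in other genes, mainly Oas1g. The nucleic acid sensor gene Zbp1 was at 30.5, 35.1 and 27.0 CPM in NOD and 21.2, 22.4 and 21.1 CPM in NOD.Idd2. The synthetase-like gene Oasl2 was at 49.7, 42.8 and 32.4 CPM against 26.1, 28.6 and 23.7 CPM. Both lost their call without NOD replicate 2 or any NOD.Idd2 library (edgeR adjusted p 0.0592 to 0.122 for Zbp1 and 0.108 to 0.194 for Oasl2), and Oasl2 was also lost by limma-voom. The strains did not overlap in any of these 4 genes. Trim30a, at 191, 188 and 189 CPM in NOD and 160, 174 and 148 CPM in NOD.Idd2, and Irf9, at 157, 151 and 141 CPM against 127, 130 and 124 CPM, did not overlap either but were not called (edgeR adjusted p = 0.103 and 0.0600). Ifi27l2a was called in the other direction, from 11.6, 11.1 and 10.5 CPM to 14.2, 17.9 and 15.2 CPM, and lost its call without any library but NOD replicate 1 (0.0559 to 0.331), in the fit of all 12 and on thinning to the shallowest library. Of 19 tested genes of the interferon gamma list none was called by edgeR, 8 had an unadjusted p under 0.05, 3 lay above 0 and the median was -0.13.

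Cell cycle genes were higher in NOD.Idd2. Of 29 tested, 5 were called higher and none lower, against 0.665% and 0.623% of all genes tested. All 29 lay above 0 and the median log2 change was 0.31. For 17 every NOD.Idd2 library was above every NOD library, against 8.7% of all genes tested. The summed level was 940 to 973 CPM in NOD and 1104 to 1216 CPM in NOD.Idd2. In a bulk library, more cycling cells and more of these transcripts per cell cannot be told apart. The number called was 2 without NOD.Idd2 replicate 2 or 3, and 0 in the fit of all 12 libraries. Other cells can cycle too. Of plasma cell, natural killer cell, T cell, B cell, and erythroid and platelet markers none was called, and the list sums overlapped between the strains. All 7 tested plasma cell markers lay above 0 (sum 313 to 340 CPM in NOD and 332 to 428 in NOD.Idd2). So did 10 of 11 natural killer cell markers (230 to 253 and 247 to 269 CPM) and 11 of 14 T cell markers. Of the B cell list 2 of 11 lay above 0, and of the erythroid and platelet list 5 of 10. No marker of those lists was at 0 counts in all 6 libraries, and their part in the result was not tested.

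Mki67 (chromosome 7, 135689784 to 135716361), the Ki-67 proliferation antigen, was at 167, 187 and 183 CPM in NOD and 230, 262 and 268 CPM in NOD.Idd2 (log2 0.50, SE 0.07, edgeR adjusted p = 0.00263). Top2a (chromosome 11, 98992943 to 99024189), the topoisomerase that untangles chromosomes, was at 70.6, 86.1 and 83.9 CPM against 112, 125 and 122 CPM. Both kept their call. The mitotic motor genes Cenpe and Kif11 and the spindle gene Nusap1 were the other calls. Nusap1 was at 8.12, 12.6 and 10.5 CPM in NOD and 16.4, 19.6 and 19.5 CPM in NOD.Idd2. Without NOD.Idd2 replicate 2 or 3, Nusap1 (edgeR adjusted p 0.108 to 0.132), Kif11 (0.128 to 0.189) and Cenpe (0.0586 to 0.149, also without NOD replicate 2) were not called. The 6 MCM helicase genes, which unwind DNA for replication, had log2 changes of 0.05 to 0.11, none called, and Mcm6 was at 110, 102 and 108 CPM in NOD and 106, 119 and 121 CPM in NOD.Idd2. Sizes sorted by role only in part. The replication genes Pcna and Tyms were at log2 0.12 and 0.00, but Rrm2, which makes nucleotides for replication, was at 0.48. The mitotic genes Plk1, Aurka and Cdc20 were at 0.23, 0.18 and 0.17, above every MCM gene. None of these genes was called. These genes were picked after their values were seen.

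The letters TTTGAA, the CHR element of genes expressed in mitosis, occurred on either strand (TTCAAA on the other) in 11 of 24 matched promoters of the 29 genes (45.8%), against 20.2% of all promoters and 14.7% of those of genes tested. This share too is counted from sequence, for a list chosen with earlier results of these data known. The stretches printed here, among them 3 of the called genes, have each match in capitals.
Mki67, chr7:135716425-135716524, minus strand: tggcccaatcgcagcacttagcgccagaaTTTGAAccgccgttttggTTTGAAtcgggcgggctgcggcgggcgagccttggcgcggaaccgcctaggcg
Top2a, chr11:99024190-99024289, minus strand: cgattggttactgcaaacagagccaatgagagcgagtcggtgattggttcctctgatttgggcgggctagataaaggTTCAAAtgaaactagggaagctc
Kif11, chr19:37376282-37376381, plus strand: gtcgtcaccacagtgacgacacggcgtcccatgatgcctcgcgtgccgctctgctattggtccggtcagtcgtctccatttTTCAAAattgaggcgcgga
Ccnb2, chr9:70421669-70421768, minus strand: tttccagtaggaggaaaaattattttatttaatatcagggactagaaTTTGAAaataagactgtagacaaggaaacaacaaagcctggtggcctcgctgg
The median log2 change was 0.36 over the 11 genes with the letters and 0.24 over the 13 without them, and all 24 lay above 0.

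**Figure D4:**
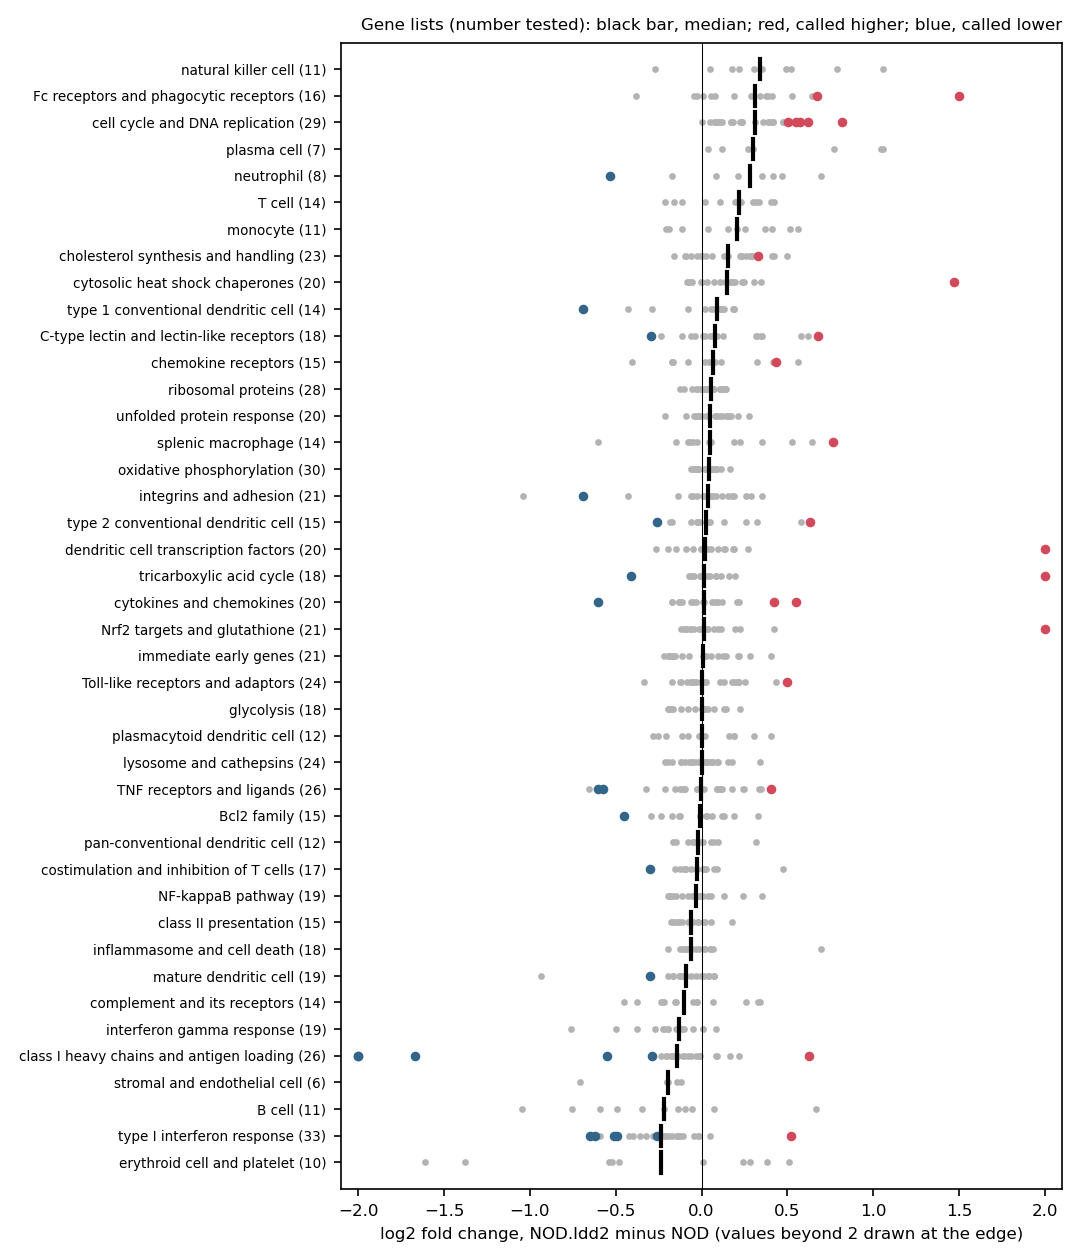
Log2 fold change (horizontal axis) of each tested member of the 42 gene lists, with the number tested in brackets, the median as a black bar, and called genes in red (higher) or blue (lower). Cell cycle genes lie above 0 (median 0.31) and type I interferon genes mostly below (median -0.23), while general dendritic cell markers centre near 0.

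Of the receptors for antibody and debris 2 were called, both higher. Fcgr2b (chromosome 1, 170958617 to 170976547), the inhibitory IgG receptor, was at 43.3 to 51.1 CPM in NOD and 77.5, 80.5 and 71.3 CPM in NOD.Idd2 (log2 0.67, SE 0.07, edgeR adjusted p = 0.000676). Pigr, the polymeric immunoglobulin receptor, was at 1.90, 1.48 and 2.31 CPM against 4.91, 5.25 and 6.22 CPM. Both kept their call. They were the only called members of 16 tested Fc and phagocytic receptor genes, where 1.29% of all genes tested were called. Of the 16, 13 lay above 0 and the median was 0.31. Myeloid markers were counted beside these receptors: the monocyte list had a median of 0.21, as given above without calls. The splenic macrophage list had a median of 0.05, with 8 of 14 tested markers above 0 and 1 called. The called marker was the scavenger receptor gene Cd163, at 13.1, 9.63 and 15.2 CPM in NOD and 21.9, 23.3 and 18.3 CPM in NOD.Idd2. That call was lost without any of the 3 NOD.Idd2 libraries (edgeR adjusted p 0.0681 to 0.205) and in the fit of all 12 libraries. The lysozyme genes Lyz1 and Lyz2, summed after their values were seen, were at 604, 433 and 529 CPM against 743, 796 and 681 CPM. The part of these cells in the receptor values was not tested. Axl, a receptor for apoptotic cells, had means of 17.6 and 25.0 CPM and was just outside the threshold (edgeR adjusted p = 0.0513). Cd33, a sialic acid-binding inhibitory lectin, was at 39.3, 33.1 and 33.2 CPM in NOD and 60.1, 52.1 and 57.2 CPM in NOD.Idd2, and kept its call.

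C-type lectins, which bind sugars on microbes and cells, moved in both directions. Mgl2 (chromosome 11, 70130329 to 70137550), a galactose-binding lectin of type 2 conventional dendritic cells, was at 30.5, 28.7 and 30.0 CPM in NOD and 44.8, 49.8 and 42.8 CPM in NOD.Idd2, with no overlap, and kept its call. Cd209d was at 13.2, 10.7 and 11.7 CPM against 19.3, 17.8 and 20.3 CPM and was lost without NOD.Idd2 replicate 1 (edgeR adjusted p = 0.0519), in the fit of all 12 libraries (0.363) and on thinning to the shallowest library (0.0581). Its neighbour Cd209e was at 5.17, 4.59 and 5.72 CPM against 10.9, 7.94 and 10.8 CPM and was lost without replicate 2 of NOD or either replicate 1 or 3 of NOD.Idd2 (0.0569 to 0.102), and likewise in the fit of all 12 libraries (0.114) and on thinning (0.0770). Both are DC-SIGN family genes on chromosome 8. In its first 5 Mb, 1 of the 14 windows with at least 3 called genes, 3 of 33 genes were called. All 3 were higher and of that family, where 1.29% of all genes tested were called and 0.665% called higher. The natural killer receptor-like genes Klri2 and Klri1 on chromosome 6 were lower. Klri2 was at 138, 130 and 125 CPM in NOD and 94.1, 93.8 and 96.7 CPM in NOD.Idd2 and kept its call, except in the fit of all 12 libraries. Klri1, at 86.7, 86.5 and 77.7 CPM against 67.8, 67.7 and 69.7 CPM, was lost without any library but NOD replicate 3 (edgeR adjusted p 0.0524 to 0.213) and in the fit of all 12 (0.390). On the type 2 list, Dtx1, a regulator of Notch signalling, was the other call, at 291, 285 and 287 CPM against 246, 228 and 246 CPM, lost without NOD replicate 2 or any NOD.Idd2 library (0.0578 to 0.189) and on thinning (0.0582). The type 2 marker Sirpa had means of 1167 and 1161 CPM. Of the 15 type 2 markers 2 were called (13.3%, against 1.29% of all genes tested), and the median of the 15 was 0.03.

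Among cytokines and chemokines, Tnf (chromosome 17, 35199381 to 35202007) was at 18.1, 21.5 and 22.6 CPM in NOD and 15.3, 12.6 and 12.7 CPM in NOD.Idd2, and lost its call without replicate 2 of either strain or NOD.Idd2 replicate 3 (edgeR adjusted p 0.0790 to 0.163) and on thinning to the shallowest library (0.0548). The adjacent gene Ltb, which encodes lymphotoxin beta, moved the other way, from 176, 196 and 221 CPM to 273, 249 and 263 CPM. The chemokine gene Ccl9 was at 42.6, 29.3 and 36.2 CPM against 54.0, 54.8 and 48.4 CPM, and Ccl6, beside it on chromosome 11, at 28.1, 22.1 and 25.4 CPM against 33.2, 34.9 and 32.7 CPM. Ltb (edgeR adjusted p 0.0750 to 0.123), Ccl9 (0.0674 to 0.218) and Ccl6 (0.110 to 0.248) were each lost without NOD replicate 2 or any NOD.Idd2 library. In the fit of all 12 libraries Ccl9 (edgeR adjusted p = 0.173) and Ccl6 (0.236) were lost too, and Ccl6 also on thinning (0.224). Tnfrsf21 (chromosome 17, 43016555 to 43089189), which encodes death receptor 6, was at 67.9, 76.6 and 75.3 CPM in NOD and 47.2, 47.8 and 53.7 CPM in NOD.Idd2 and kept its call. Il13ra1, a receptor chain for interleukins 4 and 13, was at 78.2, 66.9 and 79.7 CPM against 109, 107 and 109 CPM and kept its call. Of the 20 tested cytokine and chemokine genes 2 were called higher and 1 lower, and of the 26 tested TNF family genes 1 higher and 2 lower, Tnf being on both lists. Over all genes tested 0.665% were called higher and 0.623% lower. None of the 19 genes of the NF-kappaB pathway list was called by edgeR, and 5 had an unadjusted p under 0.05.

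Among metabolic genes, Slc7a11 (chromosome 3, 49892526 to 50443614), the cystine importer that feeds glutathione synthesis, was at 3.64 to 4.60 CPM in NOD and 23.9, 25.6 and 25.0 CPM in NOD.Idd2 (log2 2.64, SE 0.11, edgeR adjusted p = 8.09e-08). It was the single call among 21 tested Nrf2 target and glutathione genes, whose median was 0.01. Suclg2 (chromosome 6, 95473009 to 95718800), a subunit of succinyl-CoA ligase, was at 6.18, 5.65 and 4.89 CPM against 22.6 to 23.5 CPM. Mdh2, the mitochondrial malate dehydrogenase, went the other way, from 1176, 1447 and 1266 CPM to 979, 1000 and 950 CPM, and was lost without any of the 3 NOD.Idd2 libraries (edgeR adjusted p 0.0758 to 0.121). These were 2 of 18 tested genes of the tricarboxylic acid cycle list (11.1%, against 1.29% of all genes tested). The median of the list was 0.01. Its sum, of which Mdh2 was a large part, was 2887 to 3145 CPM in NOD and 2669 to 2721 CPM in NOD.Idd2, without overlap. The sum thus follows Mdh2 and does not describe the list as a group, of which 10 of 18 genes lay above 0. None was called of the 30 nuclear oxidative phosphorylation genes (median 0.05) and the 18 glycolysis genes (median 0.00), with 0 and 2 at an unadjusted p under 0.05. Desi1 (chromosome 15, 81992523 to 82033862), a deSUMOylating peptidase, was at 5.09, 6.75 and 6.21 CPM in NOD and 28.1, 27.4 and 29.9 CPM in NOD.Idd2. Slc7a11, Suclg2 and Desi1 kept their call.

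Among transcription factors, Prdm16, a zinc finger regulator, was at 4.56, 3.00 and 4.47 CPM in NOD and 8.60, 8.90 and 10.1 CPM in NOD.Idd2. It kept its call and the strains did not overlap. Of the 20 genes on the dendritic cell transcription factor list only Zbtb16 was called, and Irf8, the lineage factor of type 1 cells, had means of 351 and 398 CPM (log2 0.18, SE 0.08, edgeR adjusted p = 0.459).

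Among the decreases outside these groups, Nbea (chromosome 3, 55625195 to 56183701), a scaffold protein of membrane traffic, was at 37.2, 37.5 and 38.4 CPM in NOD and 13.6, 12.1 and 17.2 CPM in NOD.Idd2. Hip1 (chromosome 5, 135406531 to 135545120), a clathrin adaptor, was at 65.3, 63.3 and 83.4 CPM against 32.8, 33.8 and 32.2 CPM. Hrh1, the histamine H1 receptor, was at 47.6, 49.3 and 48.0 CPM against 28.7, 29.2 and 29.5 CPM. The strains did not overlap in these 3 genes, which kept their call. Mmp9, a gelatinase also made by neutrophils, was at 58.6, 59.5 and 64.5 CPM against 40.1, 45.7 and 39.6 CPM and kept its call, except in the fit of all 12 libraries, whereas the neutrophil marker S100a9 was at 1.86 to 3.48 CPM in NOD and 2.94 to 5.09 CPM in NOD.Idd2. Pmaip1, which encodes the death promoter Noxa, was at 405, 415 and 460 CPM against 298, 335 and 301 CPM and kept its call. Cd72, an inhibitory co-receptor best known in B cells, was at 93.4, 94.6 and 92.9 CPM against 67.2, 71.7 and 68.2 CPM and kept its call.

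**Figure D5:**
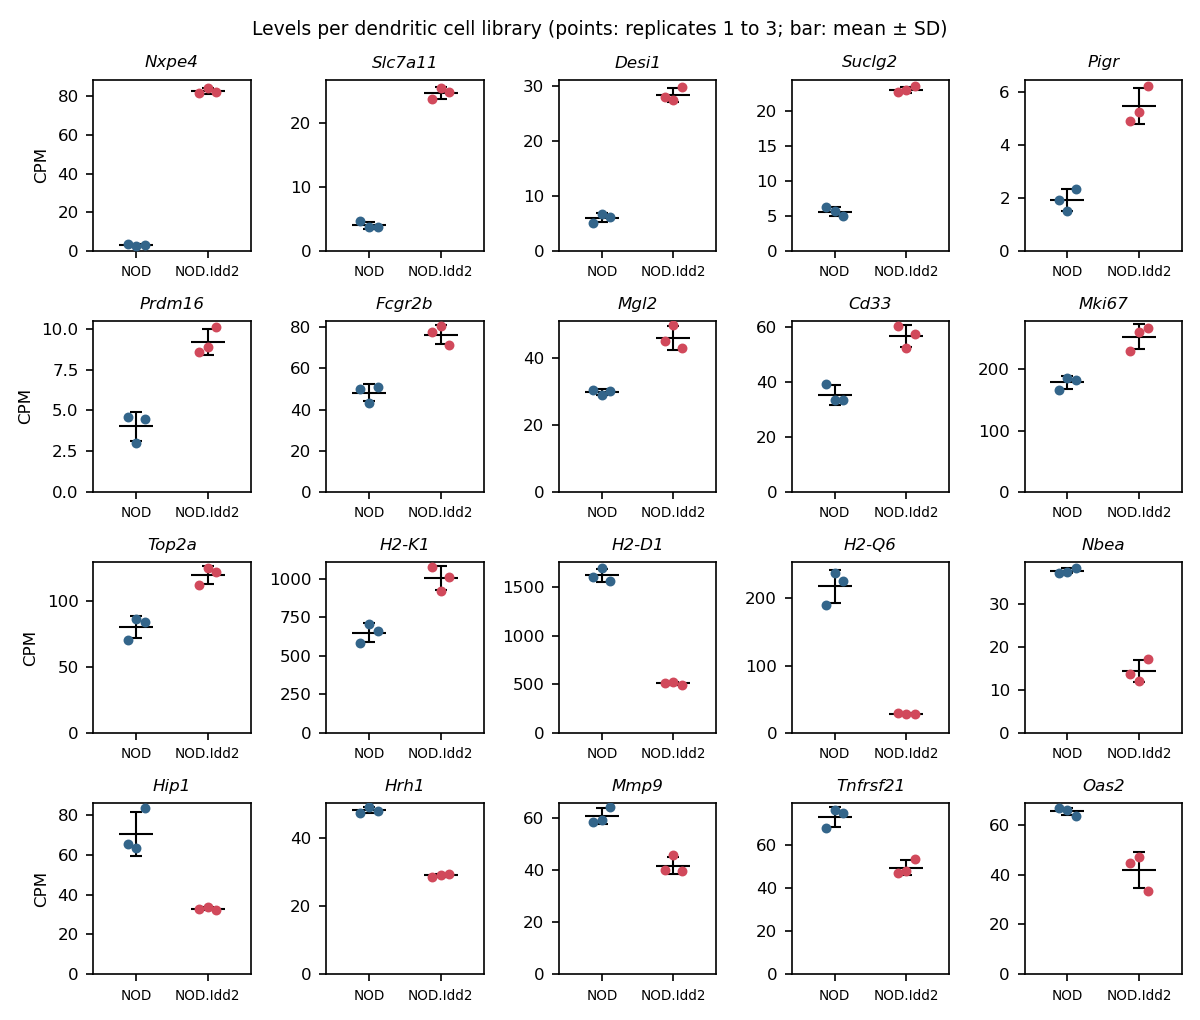
Level in CPM of 20 named genes in each dendritic cell library (points, replicates 1 to 3), with mean and SD as bars and each axis starting at 0. The strains do not overlap in any panel, which holds for all 186 called genes and for 16.5% of genes tested.

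In B cells of the same strains 24 of 15011 genes (0.16%) were called, and 16 genes were called in both cell types. The strain effect itself differed between the cell types in 18 of 16588 genes (0.109%) by the interaction term of a fit to all 12 libraries, and 14 of the 186 dendritic cell calls were among them. The counts of calls in the 2 cell types were not compared by a test. Dendritic cell libraries had 1 to 4 Xist counts each and B cell libraries 68008 to 89864, and the Y-linked gene Ddx3y had 0 counts in B cells, so cell type and sex cannot be told apart. Tnfrsf21 changed in opposite directions: in B cells it was at 4.08, 4.82 and 3.95 CPM in NOD and 19.0, 20.3 and 18.5 CPM in NOD.Idd2, a log2 change of 2.17 against -0.58 in dendritic cells. Hip1 was at 77.0, 76.7 and 81.3 CPM in NOD B cells and 77.5, 80.4 and 72.9 CPM in NOD.Idd2 B cells, so that its decrease in dendritic cells had no counterpart of that size. Suclg2, by contrast, rose in B cells by log2 2.34 and in dendritic cells by 2.05, a difference of -0.32 that did not pass (SE 0.18, edgeR adjusted p = 0.705).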

How the data were processed

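Poly(A)-selected RNA libraries were made from Trizol extracts with a KAPA kit, per the labels. STAR (version given as 0.12.2) and GRCm38 are named in the submitters' processing notes, without their roles; no source used here gives the counting tool, annotation, strand or filters. The deposited file holds raw counts per gene symbol, and its columns were matched to samples by description and title. A second table, of counts scaled by the authors within each cell type, was not used.

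Counts of the 6 dendritic cell libraries were scaled by TMM, filtered by filterByExpr (minimum count 10, total 15) and tested in edgeR 4.0.16 (R 4.3.3) with the quasi-likelihood test, taking a Benjamini-Hochberg adjusted p under 0.05 as called. The difference between cell types was a contrast in a fit of all 12 libraries. Alternatives were DESeq2 1.42.0, limma-voom (limma 3.58.1), other scalings and filters, a 1.5-fold minimum, thinning to the shallowest library, a replicate block and each library left out. No 2 libraries agreed within sampling noise.

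The comparison, the 42 gene lists and the alternatives were chosen with earlier results of these data known. Named genes, leaving out provisional symbols and receptor segments, were called genes of at least 5 CPM: the 15 largest increases and decreases, the 10 smallest p-values left, called list members (at most 8 a list), the 3 highest members of marker lists and of lists without calls, and called genes at 0 in 1 strain (up to 5). Not all are described, and some are not reported here. Other genes, copy groups and promoters shown were chosen after their values were seen. Positions came from GENCODE for 27693 symbols and RefSeq for 377. No technical batch is labelled. Replicate numbers did not pair the libraries. Tests on simulated dendritic cell counts (14219 genes) found 92.5% of the 1.5-fold changes and 100% of the 2-fold ones, and 5.34% of calls were false. In this and the next test, changes were planted only in genes above 5 CPM in dendritic cells, so recovery at lower levels is not known. The contrast between cell types (16342 genes) found 52.2% and 79.1%.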

Additional observations from a re-analysis of the deposited data

Results flagged for a closer look

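In 10 named genes the strain effect differed between dendritic cells and B cells. Values are the dendritic minus B cell log2 change in the fit of all 12 libraries (edgeR, adjusted over 16588 genes). Cell type and sex cannot be told apart in any of these genes, as the dendritic and B cell libraries differed in both. Tnfrsf21 differed by -2.76 (adjusted p = 1.58e-07), Hip1 by -1.09 (0.00511) and Cd72 by -0.53 (0.00574), and these 3 passed whichever dendritic cell library was left out. Sorl1 differed by 0.60 (0.00828), rising by 0.33 in dendritic cells and lying at -0.29 in B cells, and was lost without NOD.Idd2 replicate 2 (0.0703). Fcgr2b differed by 0.67 (0.0232) and was lost without NOD.Idd2 replicate 1 or 2 (0.0687 to 0.105).

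Nxpe4 differed by 1.96 (adjusted p = 0.0388) and Desi1 by 0.74 (0.0398). Both rose in both cell types, and both were lost without NOD replicate 3 or any NOD.Idd2 library (0.0548 to 0.105 for Nxpe4, 0.0620 to 0.156 for Desi1). Nxpe4 was lost with the replicate block too (0.0541). Prdm16 differed by 1.82 (0.0398) and was lost without any library but NOD replicate 1 (0.0539 to 0.122). Mid1 differed by -1.62 (0.0309) and was lost without any library but NOD replicate 3 (0.0663 to 0.106). Tnf differed by -0.84 (0.0398) and did not pass without replicate 2 or 3 of either strain (0.0620 to 0.149).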

How the results depend on the processing

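Against 186 genes called (96 higher, 90 lower), DESeq2 called 296 (151 and 145), edgeR with no low-count filter 700 (363 and 337), a 1.5-fold minimum 26 (15 and 11) and the fit of all 12 libraries 94 (41 and 53). The cause was not tested, apart from the 1.5-fold minimum being stricter by construction. With single libraries left out the count ranged from 63 to 332 (36 to 148 higher, 27 to 194 lower). The share called higher, 51.6% of the 186, was 41.6% without NOD replicate 3 and 43.6% in the fit of all 12 libraries. Other scalings, limma-voom, a filter at 1 CPM and thinning to the shallowest library gave 165 to 192. Of 69 named called genes 38 passed whichever library was left out, and 31 were lost without at least 1.

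The difference between cell types gave 18 genes, 114 with DESeq2, 56 with the replicate block and 7 to 19 with single libraries left out. The strains share replicate numbers, but deviations of same-numbered dendritic cell libraries correlated at -0.0017, 0.012 and 0.054, so the numbers were not taken as pairs. With the replicate block 214 genes were called (105 higher, 109 lower), 163 of them shared with the 186. With it mt-Cytb (0.0859) and mt-Nd4 (0.0533) were not called (edgeR adjusted p). Depth limits genes with few counts, above all in NOD.Idd2 replicate 3.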
